A study of Homo sapiens with 6 samples.

Results

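The genes described here are the UBE2 genes, which encode the ubiquitin-conjugating enzymes (E2). They were taken by name: every gene symbol that starts with UBE2 and has at least 1 probe set annotated to that gene alone. The rule gave 32 symbols of the 19777 genes on the arrays, with 81 probe sets between them. Of the 32 symbols, 26 are protein-coding genes, 4 are transcribed pseudogenes (UBE2NL, UBE2DNL, UBE2Q2P13 and UBE2Q2P16) and 2 are long noncoding RNAs (UBE2D3-AS1 and UBE2E2-DT). The rule itself uses no measured difference, but the members were chosen with earlier results of these data known. Where a gene had several probe sets, the one brightest on average over the 6 arrays, called its main probe set, was used. UBE2D1, UBE2D2, UBE2D3, UBE2L3, UBE2M and UBE2W were not analysed here, and UBE2V1 had only probe sets that name several genes.

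Messenger RNA was measured on 6 one-colour whole-genome 3′ expression arrays. The 3 tested arrays came from MDA-MB-231 cells transfected with 1 siRNA against ING2, and the 3 control arrays from the same line given a non-targeting siRNA. MDA-MB-231 is an established, estrogen receptor-negative and mesenchymal-like line from human breast cancer, and both groups were grown in the same serum-containing medium. ING2 is a chromatin reader that binds methylated histone H3 and belongs to a SIN3 histone deacetylase complex, and the comparison addresses what its depletion does to the transcriptome. The labels name a single ING2 siRNA and give the day of RNA collection differently in separate fields. Whether the replicates were separate cultures is not stated there, and p-values then cover only the spread between these arrays, which may be technical.

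Ubiquitin is passed along a chain of enzymes. An E1 enzyme activates it, an E2 enzyme carries it on its active-site cysteine, and an E3 ligase brings the loaded E2 to the protein to be marked. The E2 largely sets which kind of ubiquitin chain is made, and through it whether the marked protein is degraded by the proteasome, moved within the cell or used as a signal, for example at damaged DNA. A few E2 enzymes carry related proteins such as NEDD8 or ISG15 instead of ubiquitin. In breast and other tumours E2 enzymes are best known for their work in mitosis, DNA repair and the turnover of cell cycle regulators.

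The ING2 transcript checked the labels. On the main probe set of ING2, 205981_s_at, the intensity was 163, 188 and 161 units on the ING2 siRNA arrays, against 1400, 1349 and 1324 units on the control siRNA arrays, which is 12.5% of the control level. A dimmer ING2 probe set, 213544_at, read 34.6, 40.1 and 26.8 units after ING2 siRNA and 73.1, 111 and 93.7 units after control siRNA. This is 36.5% of the control level. The median intensity of an array was 78.3 to 81.4 units after ING2 siRNA and 75.6 to 77.1 units after control siRNA, and the interquartile range was narrower after ING2 siRNA (3.11 to 3.27 log2 units) than after control siRNA (3.33 to 3.38 log2 units). The GAPDH 3′ minus 5′ signal, a measure of RNA quality, was 0.269 to 0.352 log2 units after ING2 siRNA and 0.193 to 0.222 log2 units after control siRNA. These array properties did not overlap between the groups, and their part in the results was not tested. All 7 markers of the line were measured and none passed the test. Vimentin (VIM), its mesenchymal filament protein, read 14324 to 15767 units after ING2 siRNA and 15172 to 16053 units after control siRNA. Of the 7 markers of the line 6 were below 0, and CAV1 was lower without overlap (-0.29, limma adjusted p = 0.0687). None of the 8 luminal markers passed in the deposited values, though the keratin gene KRT18 was higher without overlap (0.26, limma adjusted p = 0.0620) and passed after cyclic loess (limma adjusted p = 0.0360) and quantile normalization (limma adjusted p = 0.0387). The estrogen receptor gene ESR1 read 110 to 112 units after ING2 siRNA and 97.1 to 112 units after control siRNA. The keratin genes KRT8, KRT18 and KRT19 were bright, at percentiles 98.0, 99.3 and 97.7 of mean log2 intensity. The other luminal markers lay between percentiles 5.49 (PGR) and 55.6 (GATA3). Among 6 fibroblast markers LUM passed as lower and DCN as higher, and the call of DCN was lost with cyclic loess (limma adjusted p = 0.0875) and with quantile normalization (limma adjusted p = 0.0593). Among 4 measured blood cell markers LYZ passed as lower.

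Of the 32 UBE2 genes, 3 fell after ING2 siRNA and 0 rose by the limma test, at an adjusted p under 0.05 (Benjamini-Hochberg, over the 19777 genes). The 3 were UBE2V2, a catalytically inactive partner that lets UBE2N build signalling chains, UBE2F, which carries NEDD8 to cullin-RING ligases, and UBE2B, an enzyme of DNA damage tolerance and histone ubiquitination. Each of them stood at 69.4% to 76.6% of its control level. At an unadjusted p under 0.05, 9 of the 32 UBE2 genes were lower and 5 higher, beside 13.6% and 19.4% of all genes. At the adjusted threshold 924 of all genes (4.67%) passed as lower and 716 (3.62%) as higher, and among the UBE2 genes 9.38% passed as lower. In RNA of whole cultures, fewer cells of a type and less RNA per cell cannot be told apart.

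On the log2 scale the median change of the 32 genes was -0.06 and that of the 26 coding genes -0.09, beside 0.06 over all genes. Values lay below 0 for 19 of the 32 and for 18 of the 26 coding genes. The groups did not overlap for 11 UBE2 genes lower after ING2 siRNA, beside 13.8% of all genes, and for 7 higher, beside 22.8%. As shares of the 32 these are 34.4% lower and 21.9% higher. Taken array by array, the median distance of the UBE2 genes from their control mean was -0.063, -0.0747 and -0.0542 log2 units on the ING2 siRNA arrays, against -0.00536, 0.0107 and 0.0078 log2 units on the control siRNA arrays. The sign of the median depended on the scaling. It was 0.03 after quantile normalization and 0.03 after cyclic loess, and -0.13 after each array was centred on its median, beside 0.06, 0.03 and -0.01 over all genes under the same scalings. The split of all genes past the threshold also moved, with 944 higher and 623 lower after quantile normalization (4.77% and 3.15%) and 260 higher and 1450 lower after centring.

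**Figure D1:**
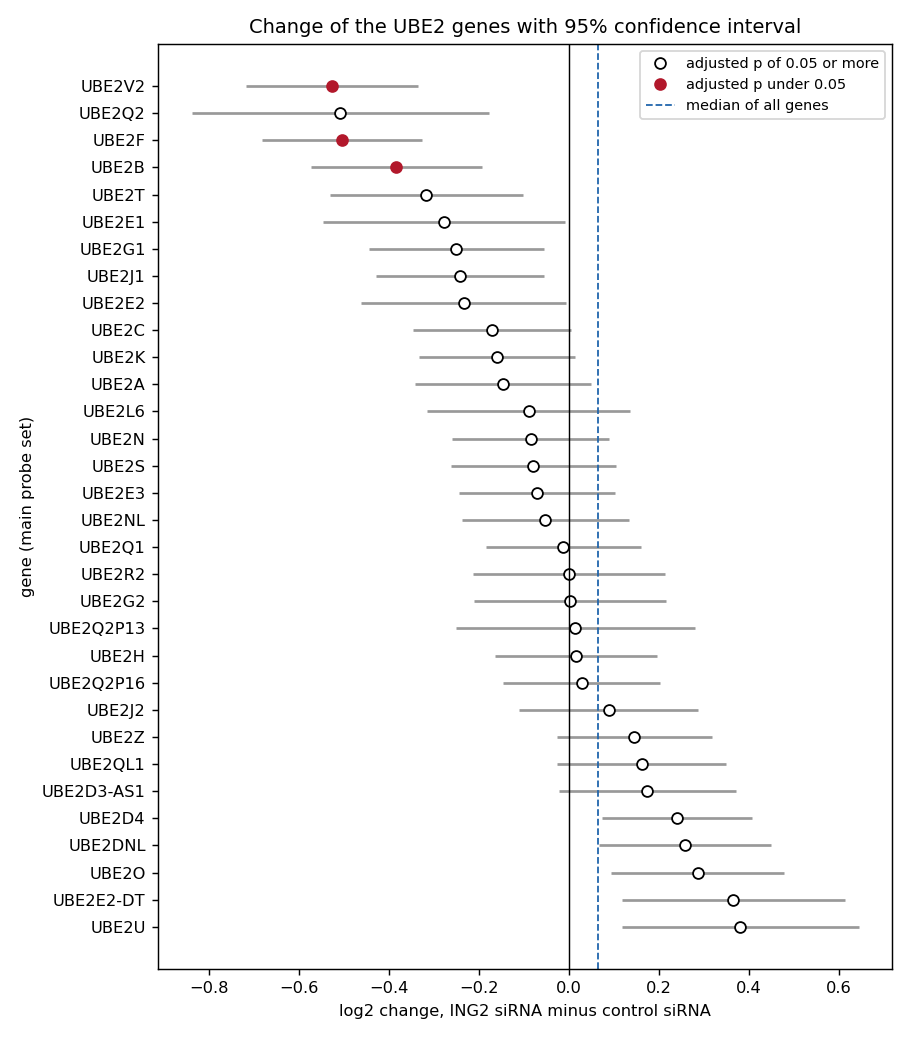
Log2 change (ING2 siRNA minus control siRNA) of the main probe set of each of the 32 UBE2 genes, with its 95% confidence interval as a horizontal bar; filled points passed an adjusted p under 0.05 and the dashed line is the median of all genes. UBE2V2, UBE2F and UBE2B are the 3 filled points, and the values run from -0.53 for UBE2V2 to 0.38 for UBE2U.

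The UBE2 genes were mostly bright on these arrays, and change varied with brightness over all genes. All genes were split by mean log2 intensity into 10 bins of equal size. Of the 32 main probe sets of UBE2 genes 24 lay in the 4 brightest bins, and the median percentile of the 26 coding genes was 88.4. Brightness depends on the probe as well as on the transcript, so this is a property of the measurement and no order of transcript levels. The median log2 change over all genes was 0.12 to 0.15 in the 3 dimmest bins and -0.01, -0.04, -0.09 and -0.09 in the 4 brightest. In those 4 bins the share of all genes passing as lower was 8.04%, 8.95%, 11.3% and 7.79%, and the share with lower, non-overlapping groups was 19.0%, 23.8%, 29.9% and 36.1%. Of the 24 UBE2 genes there, 3 passed as lower and 11 did not overlap and were lower. Set against the median of its own bin, a UBE2 gene was below in 15 cases and above in 17, and among the coding genes 13 of 26 were below. The 3 genes that fell all lay at percentile 79.9 or higher, where the median of all genes was below 0. After cyclic loess, which removes such a trend between arrays, UBE2V2 (-0.43, limma adjusted p = 0.0247) and UBE2F (-0.42, limma adjusted p = 0.0197) still passed as lower and UBE2B (-0.28, limma adjusted p = 0.0673) did not, while 3.47% of all genes passed as lower and 2.26% as higher.

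**Figure D2:**
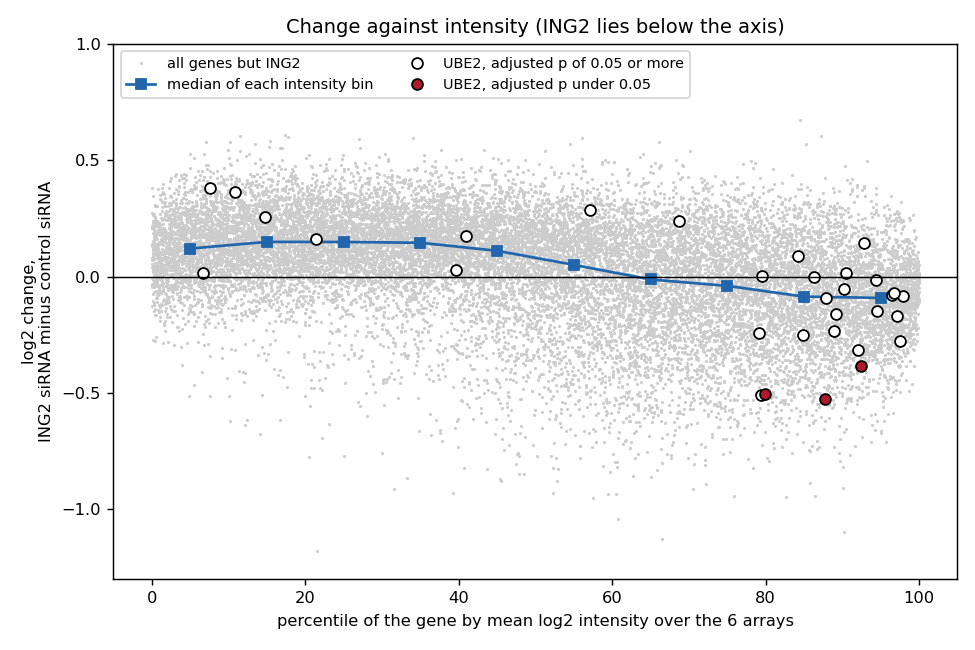
Log2 change (ING2 siRNA minus control siRNA) of every gene but ING2 as grey dots against its percentile of mean log2 intensity over the 6 arrays, with the median of each of 10 intensity bins as squares and the UBE2 genes as circles, filled where they passed an adjusted p under 0.05. The medians run from 0.12 to 0.15 in the 3 dimmest bins to values between -0.01 and -0.09 in the 4 brightest bins, where 24 of the 32 UBE2 genes lie.

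UBE2V2 and UBE2N form the pair that makes the signalling chains used in DNA damage tolerance. UBE2V2 (209096_at) read 1191, 1381 and 1295 units on the ING2 siRNA arrays, against 1811, 1823 and 1931 units on the control siRNA arrays. All 3 ING2 siRNA arrays lay well under all 3 control arrays. The log2 change was -0.53 (SE 0.086, n = 3 per group, 95% confidence interval -0.72 to -0.34, limma adjusted p = 0.0193). An exact two-sided permutation test on this gene gave p = 0.1, which is the lower limit of that test with 3 arrays a group and the value of every gene whose groups do not overlap. Its 2 dimmer probe sets were also below 0. The dimmest, 228734_at, read 24.0, 38.5 and 27.1 units after ING2 siRNA, against 32.9, 56.3 and 49.4 units after control siRNA, and these groups overlapped (-0.63, limma adjusted p = 0.102 over all probe sets).

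UBE2N, the catalytic enzyme of the pair, moved little at its main probe set. Its main probe set read 6114, 6098 and 5689 units after ING2 siRNA and 6287, 6510 and 6194 units after control siRNA, a log2 change of -0.09 (95% confidence interval -0.26 to 0.09, limma adjusted p = 0.455). The interval of this probe set leaves out a fall of the size seen for UBE2V2. A dimmer probe set of UBE2N, 201523_x_at, gave -0.30 (limma adjusted p = 0.0941 over all probe sets). After quantile normalization and cyclic loess the main probe set of UBE2N was above 0 (0.01 and 0.03). Both of these UBE2N probe sets and that of the pseudogene UBE2NL (-0.05) carry the suffix that marks probes shared between similar transcripts, so they may not be told apart. The remaining UBE2N probe set, 212751_at, lacks that suffix and changed by -0.16 with overlapping groups (limma adjusted p = 0.287 over all probe sets). All 3 UBE2N probe sets were below 0 in the deposited values, and their mean changed by -0.18 (limma adjusted p = 0.0874). UBE2V1, the other partner of UBE2N, was seen only through 4 probe sets that also name further genes. Of these, 201001_s_at read 1010, 1030 and 1007 units after ING2 siRNA and 1284, 1129 and 1210 units after control siRNA, a log2 change of -0.25. The probe set 201002_s_at went the other way, with 3316, 3560 and 4141 units after ING2 siRNA and 3209, 3052 and 2899 units after control siRNA, a log2 change of 0.26. The groups did not overlap on either, neither passed the test (limma adjusted p = 0.107 and 0.139 over all probe sets), and both name UBE2V1, UBE2V2 and PEDS1.

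UBE2F works with the ligase subunit RNF7 to attach NEDD8 to CUL5, which switches that cullin-RING ligase on. UBE2F (225787_at) read 740, 816 and 755 units on the ING2 siRNA arrays, against 1065, 1125 and 1087 units on the control siRNA arrays. The highest ING2 siRNA array lay far under the lowest control array. The log2 change was -0.51 (SE 0.080, n = 3 per group, 95% confidence interval -0.68 to -0.33, limma adjusted p = 0.0193). All 4 probe sets of UBE2F were below 0 and 3 passed in a fit of every probe set. The second of these, 231948_s_at, read 391, 429 and 405 units after ING2 siRNA and 581, 564 and 667 units after control siRNA (-0.56, limma adjusted p = 0.0166), and the third, 225783_at, changed by -0.38 (limma adjusted p = 0.0468). The remaining one, 225791_at, changed by -0.14 and overlapped between the groups. UBE2L6, which carries the interferon-induced ISG15, read 1751, 1480 and 1351 units after ING2 siRNA and 1646, 1579 and 1626 units after control siRNA, overlapping (-0.09, limma adjusted p = 0.546). UBE2Z, which is loaded by the alternative E1 UBA6, read 2637, 2653 and 2632 units after ING2 siRNA and 2457, 2445 and 2267 units after control siRNA. Its groups did not overlap, but its change of 0.14 did not pass (limma adjusted p = 0.216), and a dimmer probe set, 222395_s_at, was lower without overlap (-0.17).

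UBE2A and UBE2B are near-identical enzymes that work with RAD18 at stalled replication forks and with RNF20 and RNF40 on histones. UBE2B (202333_s_at) read 2181, 2198 and 1965 units on the ING2 siRNA arrays, against 2727, 2637 and 2912 units on the control siRNA arrays. The groups did not overlap. The log2 change was -0.38 (SE 0.085, n = 3 per group, 95% confidence interval -0.57 to -0.19, limma adjusted p = 0.0327). This call rests on 1 of 7 probe sets: the other 6 changed by -0.28 to 0.28 and none passed. The next brightest of them, 228588_s_at, 211763_s_at and 202334_s_at, changed by -0.28, 0.03 and -0.15. With the mean of all its probe sets UBE2B changed by -0.10 (limma adjusted p = 0.362). UBE2A read 2805, 3181 and 2934 units after ING2 siRNA and 3072, 3314 and 3496 units after control siRNA, overlapping (-0.15, limma adjusted p = 0.259). UBE2T, which attaches a single ubiquitin to FANCD2 with the ligase FANCL in the Fanconi anaemia pathway, read 2343, 2034 and 1859 units after ING2 siRNA and 2632, 2538 and 2565 units after control siRNA. Its groups did not overlap, and its change of -0.32 lay just outside the threshold (SE 0.097, limma adjusted p = 0.0629).

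The 3 calls were lost when any of 4 arrays was left out. Without ING2 siRNA replicate 1 or 3, or without control siRNA replicate 2 or 3, none of them passed, and in each of those fits 0 genes rose and 2 or 3 fell in the whole table. Without ING2 siRNA replicate 2 or control siRNA replicate 1 all 3 passed. Over the 6 fits the change stayed between -0.58 and -0.47 for UBE2V2 (limma adjusted p 0.0150 to 0.117), between -0.55 and -0.48 for UBE2F (limma adjusted p 0.0137 to 0.117) and between -0.42 and -0.33 for UBE2B (limma adjusted p 0.0313 to 0.126).

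**Figure D3:**
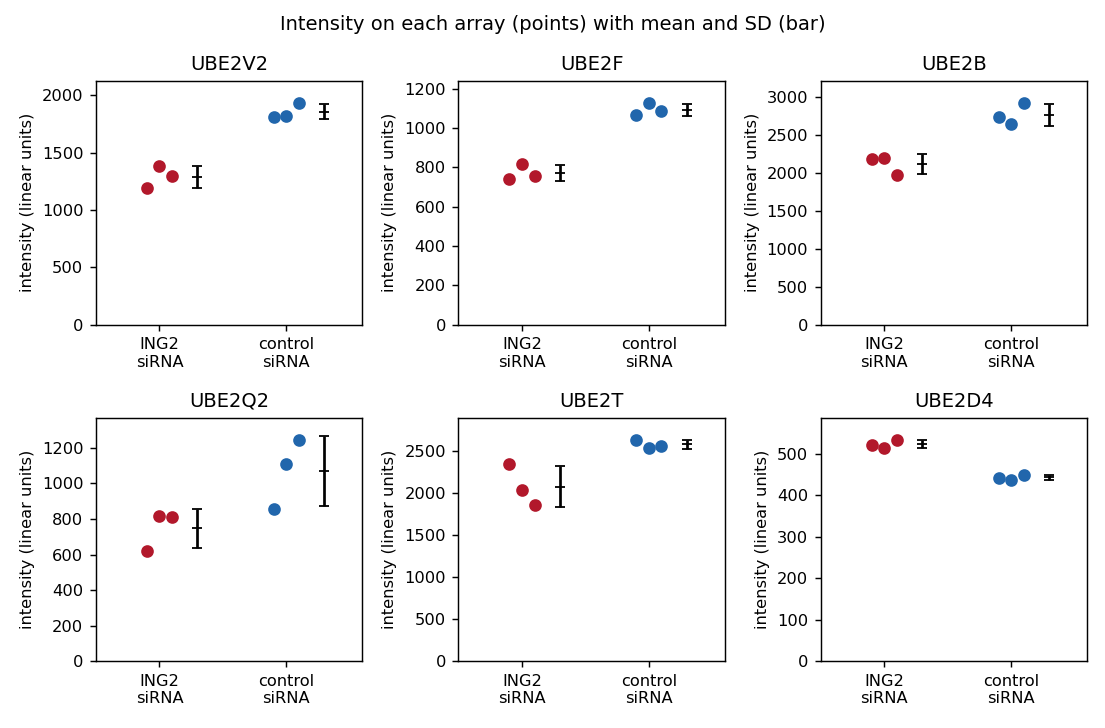
Intensity in linear units on each array (points; ING2 siRNA left, control siRNA right) for UBE2V2, UBE2F, UBE2B, UBE2Q2, UBE2T and UBE2D4, with the mean and SD of 3 arrays as a bar beside them; axes start at 0. The ING2 siRNA points lie below all control points for the first 5 genes and above them for UBE2D4, and UBE2V2, UBE2F and UBE2B passed the test.

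UBE2J1 and UBE2J2 sit in the membrane of the endoplasmic reticulum and help to mark misfolded proteins for degradation. The main probe set of UBE2J1, 222435_s_at, read 848, 823 and 744 units on the ING2 siRNA arrays, against 957, 976 and 919 units on the control siRNA arrays, and did not pass (-0.24, SE 0.084, limma adjusted p = 0.0840). All 6 probe sets of the gene were below 0, and 3 of the dimmer ones passed in a fit of all 54613 probe sets, in which 3.64% passed as lower and 1.64% as higher. The largest change was that of 217826_s_at, with 286, 297 and 306 units after ING2 siRNA and 477, 528 and 480 units after control siRNA. These groups were far apart, and the log2 change of -0.74 (SE 0.086, limma adjusted p = 0.00446) also passed in each of the 6 fits that left out 1 array. The others were 217823_s_at, with 367, 409 and 326 units after ING2 siRNA and 512, 634 and 542 units after control siRNA (-0.62, limma adjusted p = 0.0227), and 217824_at (-0.44, limma adjusted p = 0.0488). All 3 also passed after cyclic loess. Read from the mean of its probe sets, UBE2J1 passed as lower (-0.43, limma adjusted p = 0.0155), as it did after median centring (-0.31, limma adjusted p = 0.0485). It also passed from its most variable probe set, 217826_s_at. That choice goes by spread over all 6 arrays, which includes the difference between the groups. The main probe set did not pass after quantile normalization (-0.13, limma adjusted p = 0.309) or cyclic loess (-0.16, limma adjusted p = 0.243). The call of the gene thus depends on how it is read. UBE2J2 read 1272, 1263 and 1195 units after ING2 siRNA and 1294, 1089 and 1136 units after control siRNA, overlapping (0.09), with 2 probe sets on each side of 0.

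Over all 81 UBE2 probe sets, 9 passed as lower (11.1%) and 0 as higher, beside 3.64% and 1.64% of all 54613 probe sets. Counted by gene, 7.79% to 11.3% of all genes passed as lower in the 4 brightest bins. Of the 81 probe sets 53 were below 0, and the share of all probe sets below 0 was not taken. The 9 belonged to UBE2F (3), UBE2J1 (3), UBE2V2, UBE2B and UBE2G1. Of the 49 probe sets that were not the main one of their gene, 6 passed and 34 were below 0. After cyclic loess 202333_s_at of UBE2B and 225783_at of UBE2F no longer passed (limma adjusted p = 0.0990 and 0.0844 over all probe sets). Of the fits that left out 1 array, 217826_s_at of UBE2J1 passed in 6 of 6, 231948_s_at of UBE2F in 3, 225783_at in 1, 202333_s_at in 0 and the others in 2. Probe sets of 1 gene share its RNA and are no replicates of each other. Of 19 genes with more than 1 probe set, 13 had all of them on the same side of 0 and 6 had them on both sides (UBE2B, UBE2E1, UBE2G2, UBE2H, UBE2J2 and UBE2Z).

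**Figure D4:**
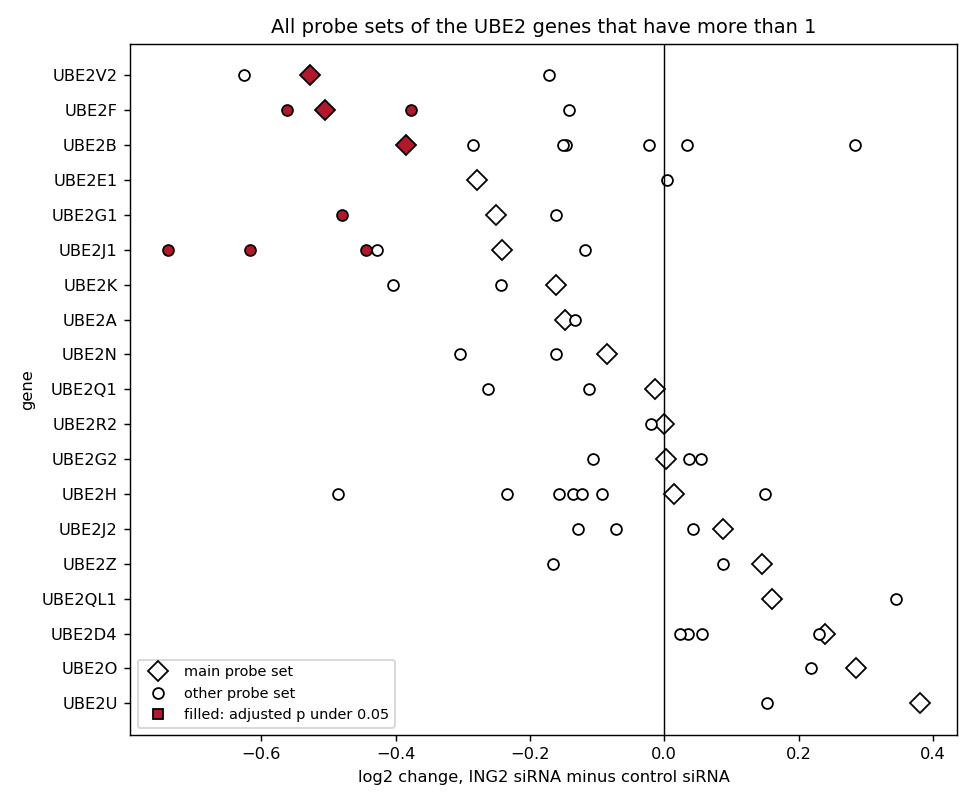
Log2 change (ING2 siRNA minus control siRNA) of every probe set of the 19 UBE2 genes that have more than 1, with diamonds for the main probe set, circles for the others and filled marks for an adjusted p under 0.05 in the fit of all probe sets. The 9 filled marks all lie below 0 and belong to UBE2V2, UBE2F, UBE2B, UBE2G1 and UBE2J1.

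The DNA before the starts of UBE2F and UBE2J1 is shown because several probe sets of each gene passed as lower. Both stretches are the 250 bases before the annotated start in the RefSeq table (GRCh38.p14), printed 5′ to 3′ on the gene's strand. Capitals mark the motifs searched on both strands: the CCAAT box (CCAAT), the ETS core (CCGGAAG), the NRF1 core (GCATGCGC), the GC box (GGGCGG), the cell cycle homology region (TTTGAA) and the cAMP response element (TGACGTCA).
UBE2F, chr2:237966764-237967013, plus strand: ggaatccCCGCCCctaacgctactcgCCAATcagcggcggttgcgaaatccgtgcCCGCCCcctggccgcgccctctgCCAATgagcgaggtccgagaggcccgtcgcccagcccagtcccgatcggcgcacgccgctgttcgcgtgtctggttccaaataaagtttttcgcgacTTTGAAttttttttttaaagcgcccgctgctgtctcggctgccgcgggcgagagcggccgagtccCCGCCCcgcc
UBE2J1, chr6:89352723-89352972, minus strand: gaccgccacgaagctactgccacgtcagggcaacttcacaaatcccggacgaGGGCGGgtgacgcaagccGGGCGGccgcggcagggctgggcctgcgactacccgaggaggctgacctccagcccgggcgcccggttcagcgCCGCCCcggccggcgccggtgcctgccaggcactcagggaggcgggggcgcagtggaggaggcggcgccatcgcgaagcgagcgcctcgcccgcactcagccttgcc
The UBE2F stretch held CCAAT at 224 and 172 bases before the start, TTTGAA at 75 bases and GC boxes at 243, 195 and 10 bases. The UBE2J1 stretch held GC boxes at 198, 180 and 107 bases and none of the other motifs searched. The table held promoters of 21 of the 26 coding UBE2 genes. Of these, 17 (81.0%) held a GC box, beside 53.7% of 22199 coding promoters, 6 (28.6%) held CCAAT, beside 32.7%, and 3 (14.3%; UBE2F, UBE2T and UBE2U) held TTTGAA, beside 11% of coding promoters. The ETS core was in 4 (19.0%), beside 10.7% of coding promoters. A match of letters is a description and not a binding site.

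Of the 5 builders of chains that lead to the proteasome none passed at its main probe set in the deposited values. UBE2G1 read 1090, 1228 and 1137 units after ING2 siRNA and 1277, 1386 and 1448 units after control siRNA, without overlap (-0.25, limma adjusted p = 0.0849). Its dimmer probe set 209142_s_at read 635, 729 and 706 units after ING2 siRNA and 942, 916 and 1026 units after control siRNA and passed (-0.48, SE 0.093, limma adjusted p = 0.0259 over all probe sets). The probe set 226005_at was also below 0 (-0.16). UBE2G1 passed as lower from the mean of its probe sets (-0.30, limma adjusted p = 0.0340) and with array weights (-0.28, limma adjusted p = 0.0401). Its main probe set did not pass after quantile normalization (-0.13, limma adjusted p = 0.314) or cyclic loess (-0.16, limma adjusted p = 0.255). It passed in 0 of the 6 fits that left out 1 array. UBE2K, which extends existing ubiquitin chains, read 1684, 1644 and 1573 units after ING2 siRNA and 1866, 1766 and 1847 units after control siRNA, without overlap (-0.16, limma adjusted p = 0.175). All 3 probe sets of UBE2K were below 0, and their mean changed by -0.27 (limma adjusted p = 0.0605). The largest change, that of 202346_at, was -0.40 with overlapping groups (limma adjusted p = 0.112 over all probe sets). UBE2R2, a close relative of CDC34 that works with cullin ligases, UBE2G2, an enzyme of endoplasmic reticulum quality control, and UBE2H, the partner of the CTLH ligase, changed by -0.00, 0.00 and 0.01, each with overlapping groups. Their 95% confidence intervals were -0.21 to 0.21 for UBE2R2, -0.21 to 0.22 for UBE2G2 and -0.17 to 0.19 for UBE2H. UBE2H had 8 probe sets between -0.49 and 0.15, and none passed.

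Of the broad enzymes that start chains with many ligases, 4 of 9 were measured and none passed. UBE2E1 read 4916, 5590 and 4863 units after ING2 siRNA and 5282, 7348 and 6156 units after control siRNA, and control replicate 1 lay inside the ING2 siRNA range (-0.28, limma adjusted p = 0.140). UBE2E2 read 1415, 1710 and 1594 units after ING2 siRNA and 1733, 1758 and 2060 units after control siRNA, lower without overlap (-0.23, limma adjusted p = 0.143). UBE2E3 changed by -0.07, and was above 0 after quantile normalization and cyclic loess (0.04 each). UBE2D4 had higher values after ING2 siRNA. It read 521, 514 and 533 units after ING2 siRNA and 442, 437 and 449 units after control siRNA, and its change of 0.24 did not pass (SE 0.075, limma adjusted p = 0.0669). It passed after quantile normalization (0.34, limma adjusted p = 0.0373) and missed the threshold after cyclic loess (0.29, limma adjusted p = 0.0534). All 5 probe sets of UBE2D4 were above 0 (0.02 to 0.24). The enzymes of this group resemble each other closely, so shared signal between their probes cannot be told apart here.

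UBE2C starts and UBE2S extends the chains by which the anaphase-promoting complex ends mitosis, and both are markers of dividing cells. UBE2C read 5015, 4553 and 4927 units after ING2 siRNA and 5456, 5380 and 5479 units after control siRNA. Its groups did not overlap, and the change of -0.17 did not pass (95% confidence interval -0.35 to 0.00, limma adjusted p = 0.159). UBE2S read 4150, 4119 and 4233 units after ING2 siRNA and 4758, 4160 and 4313 units after control siRNA, and control replicate 2 lay inside the ING2 siRNA range (-0.08, limma adjusted p = 0.513). After quantile normalization and cyclic loess UBE2S was above 0 (0.04 and 0.03).

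Among the large or less studied enzymes UBE2Q2 had a change as large as that of the genes that passed, with a wider spread. It read 621, 816 and 809 units after ING2 siRNA and 857, 1108 and 1244 units after control siRNA, and the groups were separated by a narrow gap. The log2 change was -0.51 (SE 0.15, 95% confidence interval -0.84 to -0.18, limma adjusted p = 0.0570). UBE2Q1 read 2917, 3027 and 3131 units after ING2 siRNA and 3141, 3018 and 2998 units after control siRNA. At this main probe set it changed by -0.01 in the deposited values, 0.11 after quantile normalization and 0.09 after cyclic loess. Its dimmer probe sets 222480_at and 231816_s_at changed by -0.26 and -0.11 (limma adjusted p = 0.172 and 0.559 over all probe sets). After cyclic loess they changed by -0.33 and -0.19, and neither passed. UBE2O, a large enzyme that acts as both E2 and E3 and clears unassembled proteins, read 274, 316 and 277 units after ING2 siRNA and 246, 233 and 233 units after control siRNA. It was higher without overlap, and its change of 0.29 did not pass (SE 0.087, limma adjusted p = 0.0626). With quantile normalization it passed (limma adjusted p = 0.0390), and with cyclic loess it missed the threshold (limma adjusted p = 0.0615). UBE2QL1 (0.16) and UBE2U (0.38, limma adjusted p = 0.0661) lay in the 3 dimmest intensity bins, where the median of all genes was above 0 too. UBE2U read 17.2, 16.3 and 20.5 units after ING2 siRNA and 12.0, 13.9 and 15.6 units after control siRNA.

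The 5 noncoding or pseudogene symbols other than UBE2NL were all above 0 and none passed. UBE2E2-DT, a divergent transcript beside UBE2E2, read 24.2, 21.4 and 27.2 units after ING2 siRNA and 20.7, 18.9 and 16.9 units after control siRNA, higher without overlap (0.36, limma adjusted p = 0.0635), while UBE2E2 itself was lower. UBE2DNL (0.26, limma adjusted p = 0.0778) and UBE2D3-AS1 (0.17, limma adjusted p = 0.197) were also higher without overlap. Over all genes 22.8% were higher without overlap. UBE2E2-DT and UBE2DNL lay in a dim bin, where the median of all genes was 0.15 and 27.2% were higher without overlap. UBE2E2 lay in a bright bin with a median of -0.09. After cyclic loess UBE2E2-DT changed by 0.25 and UBE2E2 by -0.13 (limma adjusted p = 0.157 and 0.413). UBE2Q2P13 (0.01) and UBE2Q2P16 (0.03) overlapped, and both were below 0 after quantile normalization (-0.09 and -0.03) and cyclic loess (-0.09 and -0.06).

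The partners of the UBE2 enzymes were read from lists. Of 9 measured genes for ubiquitin and its relatives 0 rose and 2 fell (median -0.13), of 7 E1 genes 0 rose and 1 fell (median -0.13), and of 8 other genes with the conjugating fold none passed (median -0.13; 2 with smallest p, ATG3 at -0.42 and UEVLD at -0.40, limma adjusted p = 0.0542 and 0.0985). Of 15 members of the anaphase-promoting complex 0 rose and 1 fell (median -0.03), and of 15 cullin-RING core genes 0 rose and 1 fell (median -0.13). Of 31 ligases 0 rose and 4 fell (median -0.16), and of 11 SUMO ligases and proteases 0 rose and 1 fell (median -0.06). Over all genes 4.67% passed as lower, and 7.79% to 11.3% in the 4 brightest bins, so 1 call among 11 or 15 genes lies near these shares.

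In the NEDD8 pathway, where UBE2F acts, the E1 subunit UBA3 read 1574, 1760 and 1591 units after ING2 siRNA and 1963, 2362 and 2205 units after control siRNA and fell (-0.40, limma adjusted p = 0.0359), and after cyclic loess it did not pass (limma adjusted p = 0.0626). CUL5, the cullin that UBE2F modifies, read 1404, 1621 and 1167 units after ING2 siRNA and 2150, 2549 and 2351 units after control siRNA. It fell (log2 change -0.76, SE 0.12, limma adjusted p = 0.0193), with all 4 of its probe sets below 0, and also passed after cyclic loess (limma adjusted p = 0.0165). RNF7, the ligase subunit that pairs UBE2F with CUL5, read 2159, 2127 and 1846 units after ING2 siRNA and 2382, 2345 and 2257 units after control siRNA, without overlap (-0.19, limma adjusted p = 0.160). The other E1 subunit NAE1 (-0.24, limma adjusted p = 0.0931), NEDD8 itself (-0.16) and the RING protein RBX1 (-0.27, limma adjusted p = 0.0716) did not pass.

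Around UBE2V2 and UBE2B, the ligase HLTF, which extends chains on the replication clamp with UBE2N and UBE2V2, read 881, 905 and 859 units after ING2 siRNA and 1130, 1430 and 1330 units after control siRNA and fell (-0.55, limma adjusted p = 0.0226; 0.0285 after cyclic loess). Its relative SHPRH (-0.65, limma adjusted p = 0.0820) was lower without overlap and did not pass. RAD18, the ligase of UBE2A and UBE2B at stalled forks, changed by -0.21 with overlapping groups, and their histone ligases RNF20 and RNF40 by -0.17 and 0.25, none past the threshold. RNF40 passed as higher after cyclic loess (0.31, limma adjusted p = 0.0446). FANCL, the ligase of UBE2T, changed by -0.37 without overlap (limma adjusted p = 0.0741).

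ANAPC10, a substrate-binding subunit of the complex that UBE2C and UBE2S serve, read 375, 411 and 341 units after ING2 siRNA and 538, 584 and 659 units after control siRNA and fell (-0.66, limma adjusted p = 0.0193). Its activators CDC20 (0.02) and FZR1 (0.18) did not pass. XIAP, an inhibitor of apoptosis that is also a ligase, fell by 0.60 (limma adjusted p = 0.0381, and 0.0595 after cyclic loess). MDM2, the ligase of p53, fell by 0.58 at its main probe set (limma adjusted p = 0.0444), and 4 of its 10 probe sets were below 0. RMND5A, a subunit of the CTLH ligase that UBE2H serves, read 432, 454 and 459 units after ING2 siRNA and 573, 601 and 594 units after control siRNA (-0.39, limma adjusted p = 0.0264), while its partner MAEA did not pass (-0.21).

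Among the ubiquitin-like proteins UFM1 fell by 0.61 (limma adjusted p = 0.0497, and 0.0731 after cyclic loess) and the autophagy modifier ATG12 by 0.57 (limma adjusted p = 0.0208). ATG12 read 403, 493 and 403 units after ING2 siRNA and 657, 653 and 612 units after control siRNA. The SUMO protease SENP6 fell by 0.54 (limma adjusted p = 0.0388). Each of these listed genes that fell passed in 2 of the 6 fits that left out 1 array. The E1 enzymes of ubiquitin gave values on either side of 0, with 0.30 for UBA1 (limma adjusted p = 0.0778) and -0.37 for UBA6 (limma adjusted p = 0.0653), and with quantile normalization UBA1 passed as higher (limma adjusted p = 0.0407).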

How the data were processed

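The labels' protocols describe cRNA with a biotin label, made from total RNA of MDA-MB-231 cells, and 1 array was read per sample. The authors deposited intensity per probe set on a linear scale, and the submitters' processing notes name RMA and R 2.12. RMA output is usually on a log2 scale. The sources used here do not give the step to linear values, the background settings or any filters. The log2 of the deposited values was taken with no pseudocount or intensity filter.

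Of 54675 probe sets, 62 controls were left out. A platform annotation of 2016 named 1 gene for 41091 of the rest, several for 1801 and none for 11721. Symbols were updated by gene identifier through a RefSeq table (GRCh38.p14), which held 19735 of the 19777 genes. A gene was read from its brightest probe set by mean log2. The contrast of ING2 siRNA minus control siRNA was fitted in R 4.3.3 with limma 3.58.1 (lmFit, eBayes), with no covariate and with Benjamini-Hochberg adjustment over all genes. The fit was tested on simulated data. Precision is limited by the 3 arrays in each group. The labels and tables give no scan date, slide or other batch.

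Every UBE2 gene could be named. In each related list, genes past the threshold were named, up to 3 in each direction, or the 2 with the smallest p where none passed. RMND5A and the partners without a call were named outside that rule, after their values were seen. The members, lists and tests were chosen with earlier results of these data known. Alternatives were other scalings (median centring, quantile, cyclic loess with 3 iterations), a filter at the 40th percentile of intensity, other choices of probe set, a pseudocount of 16, robust eBayes with an intensity trend, weights for arrays, a block for the replicate number, leaving out each array, and other thresholds.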

Additional observations from a re-analysis of the deposited data

How the results depend on the processing

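Counts below are UBE2 genes higher and lower, then all genes higher and lower, against 0, 3, 716 and 924 as reported; the median is that of the UBE2 genes, -0.0624 as reported. Median centring gave 0, 6, 260 and 1450 (median -0.134), quantile normalization 2, 2, 944 and 623 (median 0.0339) and cyclic loess 0, 2, 447 and 686 (median 0.0294). Without dim probe sets the counts were 2, 5, 870 and 1259 (median -0.0858, over 27 UBE2 genes). The mean of all probe sets gave 2, 6, 1229 and 1391 (median -0.0849), and the most variable probe set (by interquartile range) 1, 4, 1307 and 1953 (median -0.118). A pseudocount of 16 gave 2, 3, 856 and 1187, an intensity trend with robust eBayes 0, 5, 971 and 1436, and array weights 3, 6, 1927 and 1931. At an adjusted p under 0.01 the counts were 0, 0, 0 and 2, at 0.1 they were 5, 7, 2483 and 2017, and with at least a 1.5-fold change 0, 0, 8 and 247. Platform symbols gave 0 and 3 UBE2 genes. The cause of these shifts was not tested, apart from the thresholds, which call fewer or more genes by construction. The most variable probe set is chosen by its spread over all 6 arrays, which includes the difference between the groups. Passing with it is therefore partly built into the choice. Over the 6 fits that left out 1 array, 0 to 2 UBE2 genes were higher and 0 to 5 lower, beside 0 to 1227 genes higher and 2 to 1631 lower over all genes, and the UBE2 median lay between -0.0737 and -0.0487. Whether the replicate numbers pair the arrays was not settled. Deviations of same-numbered arrays correlated at 0.263, 0.291 and -0.0190 across genes, and 2 of 3 numbers correlated best with their own. With the replicate block 2 UBE2 genes were higher and 5 lower, and 1630 and 1878 over all genes.

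In fits of all 6 arrays, UBE2F passed under 11 of 11 alternatives, UBE2V2 under 10 (not with the most variable probe set, limma adjusted p = 0.0659) and UBE2B under 7. UBE2B was lost with quantile normalization (limma adjusted p = 0.0786), cyclic loess (0.0673), the mean of its probe sets (0.362) and the most variable probe set (0.476). UBE2Q2 passed under 7, UBE2T under 6, UBE2D4 and UBE2O under 4 each, UBE2G1, UBE2J1 and UBE2E2-DT under 3 each, UBE2QL1 under 2 and UBE2U under 1. Of 539 values of single genes under alternatives, 438 kept direction and side of the threshold, 17 lost and 39 gained a call, and 45 changed sign, in 13 genes with main changes of at most 0.145 in size. None of these 13 passed as reported, and the lowest limma adjusted p of a turned value was 0.0719. Turned values were, with quantile normalization, UBE2E3 0.0368, UBE2L6 0.0311, UBE2N 0.00597, UBE2NL 0.0781, UBE2Q1 0.112, UBE2Q2P13 -0.0891, UBE2Q2P16 -0.0280, UBE2R2 0.121 and UBE2S 0.0436. With cyclic loess they were UBE2E3 0.0400, UBE2L6 0.00806, UBE2N 0.0280, UBE2NL 0.0473, UBE2Q1 0.0931, UBE2Q2P13 -0.0902, UBE2Q2P16 -0.0551, UBE2R2 0.0957 and UBE2S 0.0307. Median centring turned UBE2G2 (-0.0692), UBE2H (-0.0569), UBE2Q2P13 (-0.0577) and UBE2Q2P16 (-0.0439). The mean of probe sets turned UBE2G2 (-0.00320), UBE2H (-0.133) and UBE2J2 (-0.0171), the most variable probe set UBE2H (-0.486) and UBE2Z (-0.166), and array weights UBE2H (-0.00225), UBE2Q1 (0.00285), UBE2Q2P13 (-0.00978) and UBE2R2 (0.0372). Leaving out 1 array turned UBE2G2 (-0.0787 to 0.0713), UBE2H (-0.0185 to 0.0522), UBE2Q1 (-0.0384 to 0.0128), UBE2Q2P13 (-0.110 to 0.0999), UBE2Q2P16 (-0.00194 to 0.0534) and UBE2R2 (-0.0785 to 0.0546).

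In the related lists, UFM1, UBA3 and XIAP were lost with both quantile normalization and cyclic loess, and MDM2 with quantile normalization (limma adjusted p = 0.0509) but not with cyclic loess (0.0499).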
